A study of Mus musculus with 12 samples.

Results

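Messenger RNA of mouse kidney tubuloids that had received myoglobin for 12 h was compared with that of tubuloids given vehicle, across every gene with a deposited value of at least 10 in at least 4 of the 12 libraries. This took in 14558 of 20819 genes, and the other 6261 were not tested. Tubuloids are ball-shaped cultures of tubular epithelium, here primary cells dissociated from the renal cortex of 4 wildtype mice and embedded in Matrigel. The series has 3 groups of 4 libraries: vehicle, myoglobin, and myoglobin with 100 nM dexamethasone, a synthetic glucocorticoid. The last group is tested against none here, but its libraries count in the filter and in the alternative fit of all 12. Its values are given beside those of the others for a few genes. The labels do not give the myoglobin dose, its content of other substances, or the strain, age and sex of the mice. They do not say whether a replicate number stands for a mouse, so the p-values measure the spread between these libraries.

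Myoglobin is the oxygen-storing haem protein of muscle, and the series' design names it as the agent of tubular injury. After muscle breakdown it is filtered in the glomerulus and taken up by proximal tubule cells through the receptors megalin (Lrp2) and cubilin (Cubn). Haem released inside the cell is split by haem oxygenase into biliverdin, carbon monoxide and iron, and the iron is stored in ferritin or exported by ferroportin (Slc40a1). Free haem and iron oxidise lipids, and haem relieves repression by BACH1 of genes that the transcription factor NRF2 activates.

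The deposited values are reads per gene scaled to a common depth and rounded. They sum to 5.25 to 5.29 M per library with vehicle and to 5.32 to 5.35 M with myoglobin. The scale factors read from the steps between values give 5.51 to 5.87 M reads with vehicle and 5.28 to 5.92 M in 3 myoglobin libraries, while no step could be read in replicate 2. In a principal component analysis of the 8 libraries the first component held 53.2% of the variance and separated the 2 groups. The second held 17.1% and set libraries of the same replicate number side by side in both groups. Of the epithelial markers Cdh1, the adherens junction cadherin, was at 2388 to 2442 with vehicle and 2216 to 2417 with myoglobin. All 11 epithelial markers summed to 11259 to 11738 with vehicle and to 10665 to 11236 with myoglobin, ranges that do not overlap. Of these markers 4 were called lower and 0 higher. The labels call the cells renal tubular epithelium and name no segment. Of proximal tubule genes Lrp2 was at 216 to 264 with vehicle, but Cubn was at 0 to 5 and the phosphate transporter gene Slc34a1 at 0 to 3 over the 8 libraries.

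Markers of other cell types were counted as well. Of 20 leukocyte markers in the table, 7 stayed below 10 in every library, among them the complement genes C1qa, C1qb and C1qc (0 to 4) and Tyrobp (1 to 7). Other macrophage markers were detected over the 8 libraries: Cd68 (68 to 116), Lyz2 (28 to 112), Mrc1 (7 to 32) and Adgre1 (1 to 28). None of these was called, but with the replicate number as a block 2 of the 6 tested leukocyte markers were called lower in place of 1. The summed leukocyte markers were at 661 to 830 with vehicle and 637 to 785 with myoglobin. Ptprc, the leukocyte antigen CD45, held the largest share of that sum and fell (-0.38 ± 0.064), and Aif1, a calcium-binding protein of macrophages, rose (1.03 ± 0.11). Of 11 endothelial markers 7 stayed below 10, with sums of 227 to 252 and 179 to 224, and 0 of the 4 tested were called (at an unadjusted p below 0.05 by limma 1 was lower, and 1 was called lower with the block or without myoglobin replicate 4). Fibroblast and pericyte markers summed to 445 to 527 and 339 to 382. Of the 10 tested, Rgs5, the pericyte gene with the largest share of the sum, fell (-0.63 ± 0.082). The other 2 calls were at low values: Cspg4 rose (6, 7, 4 and 3 to 13, 12, 8 and 10) and lost the call without vehicle replicate 4 or myoglobin replicate 1, 2 or 4, and Pdgfra fell (26, 31, 29 and 19 to 18, 14, 13 and 15) and lost it without vehicle replicate 2 or 3. Of 9 podocyte markers 0 were called (2 lower at an unadjusted p below 0.05), with sums of 1508 to 2477 and 1204 to 1828; blocked by replicate number 3 were called lower, as were 3 without vehicle replicate 1 and 1 without myoglobin replicate 4. The part of these markers in the changes below was not tested, and in such bulk RNA fewer cells of a type cannot be told apart from less RNA per cell.

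Myoglobin moved a large share of the transcriptome, mostly by small amounts. By limma at an adjusted p below 0.05, 3526 of 14558 genes (24.2%) were called, 1772 higher (12.2%) and 1754 lower (12.0%). "Rose" and "fell" are used below of called genes only, and a count of 0 in a direction is also 0 at an unadjusted p below 0.05 in every list and family for which it is given. Changes are log2 fold changes of value + 1 ± standard error, with 4 libraries per group. Of the called genes 2567 (72.8%) changed by less than 1.5-fold, while 196 rose and 215 fell by at least 2-fold. In 3644 genes (25.0%) the values of the 2 groups did not overlap, 1880 of them higher with myoglobin. With the replicate number as a block the calls numbered 5470 (2683 higher, 2787 lower), which included 3525 of the 3526. Among protein-coding genes 1718 rose and 1602 fell of 13109 (25.3%), and among long noncoding RNAs 37 rose and 126 fell of 956 (17.1%).

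Size and direction of the changes went with level. Genes with a mean of 10 to 30 had a median log2 fold change of -0.161, with 95 called higher and 213 lower of 1839. Those with a mean of 300 to 1000 had a median of 0.025, with 919 higher and 581 lower of 5495. Above 1000, 36.3% of the 953 genes were called, but 1 changed by at least 2-fold. Per kilobase of exon, 0 of the 268 genes with a mean density above 300 changed by at least 2-fold, and the largest change among them was 0.98 on the log2 scale. No deposited value exceeds 5857. The submitters' notes name Picard without its role. Whether reads were removed as duplicates before counting, which would make folds and gains of densely covered genes too small, was not tested; this bears on the ferritin genes and on the ranking by gain in mean value.

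**Figure D1:**
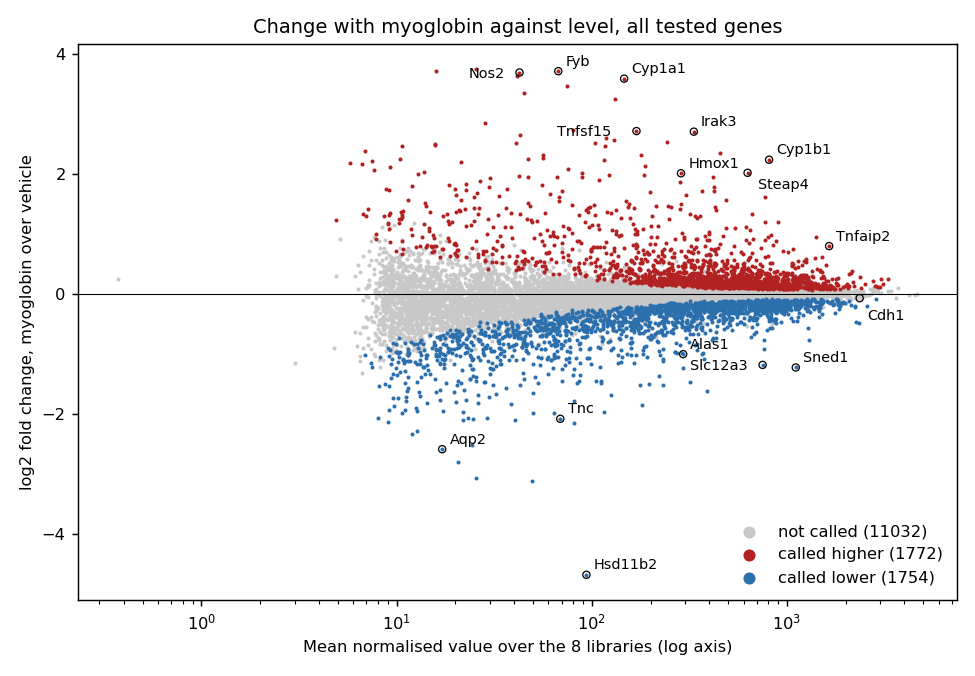
Each point is 1 of the 14558 tested genes, with its mean normalised value over the 8 libraries (log axis) against its log2 fold change with myoglobin. Red points (1772) were called higher, blue points (1754) lower and grey points were not called; the named genes are circled, and Hsd11b2 lies lowest at -4.68.

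Haem handling is described first. All lists of genes were chosen with earlier results of these data known. The counts of a list are to be read beside the shares of all tested genes, 12.2% called higher and 12.0% called lower. Of 42 tested genes of haem breakdown, haem transport and iron, 14 rose and 3 fell, with a median change of 0.08. Hmox1, the inducible haem oxygenase (ENSMUSG00000005413, chromosome 8, 75093621 to 75100589, mm10), was at 110, 113, 124 and 106 in the vehicle libraries and 475, 446, 468 and 451 in the myoglobin libraries. The groups are far apart, and the rise was 2.01 ± 0.058 on the log2 scale (adjusted p 6.38e-10 by limma). Steap4, a metalloreductase of iron uptake (ENSMUSG00000012428, chromosome 5, 7960457 to 7982213), went from 269, 258, 256 and 211 to 1061, 1010, 983 and 981, a rise of 2.02 ± 0.065. The iron importer gene Slc11a2 rose by 0.61 ± 0.027, the haem transporter gene Slc48a1 by 0.52 ± 0.048 and the repressor gene Bach1 by 0.27 ± 0.049.

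Both ferritin chains rose, with folds that may be too small at their density. Fth1, the heavy chain, stood at 737, 684, 740 and 719 with vehicle and 867, 887, 933 and 857 with myoglobin (0.30 ± 0.036). Ftl1, the light chain, went from 243, 241, 236 and 241 to 298, 293, 310 and 285 (0.30 ± 0.044). In both the groups did not overlap. Slc40a1, the iron exporter ferroportin, was at 513 to 606 and 500 to 607; its change was 0.02 ± 0.065 with a 95% interval of -0.12 to 0.16, and it was not called (adjusted p 0.846). Hmox2, the constitutive haem oxygenase, was not called either (-0.10 ± 0.039, adjusted p 0.0702), but was called lower with upper-quartile, library-total and quantile scaling (adjusted p 0.0355, 0.0406 and 0.0379).

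Haem synthesis moved the other way at its first step. Alas1, which makes the precursor of haem and is the rate-limiting enzyme of the pathway (ENSMUSG00000032786, chromosome 9, 106233455 to 106248654), was at 378, 397, 395 and 399 with vehicle and 189, 202, 186 and 206 with myoglobin. The groups are far apart, with a fall of -1.0 ± 0.048 (adjusted p 3.25e-08 by limma). Of the other enzymes of the pathway, Alad, Uros, Urod, Cpox, Ppox and Fech had changes from -0.10 (Ppox) to 0.10 (Cpox) and were not called, though Cpox and Ppox were under the replicate block (adjusted p 0.0371 and 0.0364), and Ppox with upper-quartile and quantile scaling too (0.0414 and 0.0402). Hebp2, a haem-binding protein, and Heph, a ferroxidase of iron export, also fell (-0.33 ± 0.067 and -0.28 ± 0.06); under the replicate block 5 members of the list fell in place of 3.

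Of 22 tested genes of protein uptake, 3 rose and 3 fell (13.6% each), and 5 and 4 with the block. These shares are near the 12.2% and 12.0% of all tested genes. Lrp2, the megalin gene (ENSMUSG00000027070, chromosome 2, 69424340 to 69586065), was at 264, 234, 216 and 218 with vehicle and 456, 351, 383 and 357 with myoglobin and rose by 0.73 ± 0.086. Dab2, the adaptor that couples megalin to clathrin, was at 315 to 414 with vehicle and 220 to 273 with myoglobin and fell (-0.58 ± 0.093), and Lrpap1, the chaperone of megalin, fell slightly (-0.16 ± 0.036). Clathrin heavy chain (Cltc) and the early endosome gene Rab5a had changes of 0.00 ± 0.03 and 0.07 ± 0.043 and were not called.

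**Figure D2:**
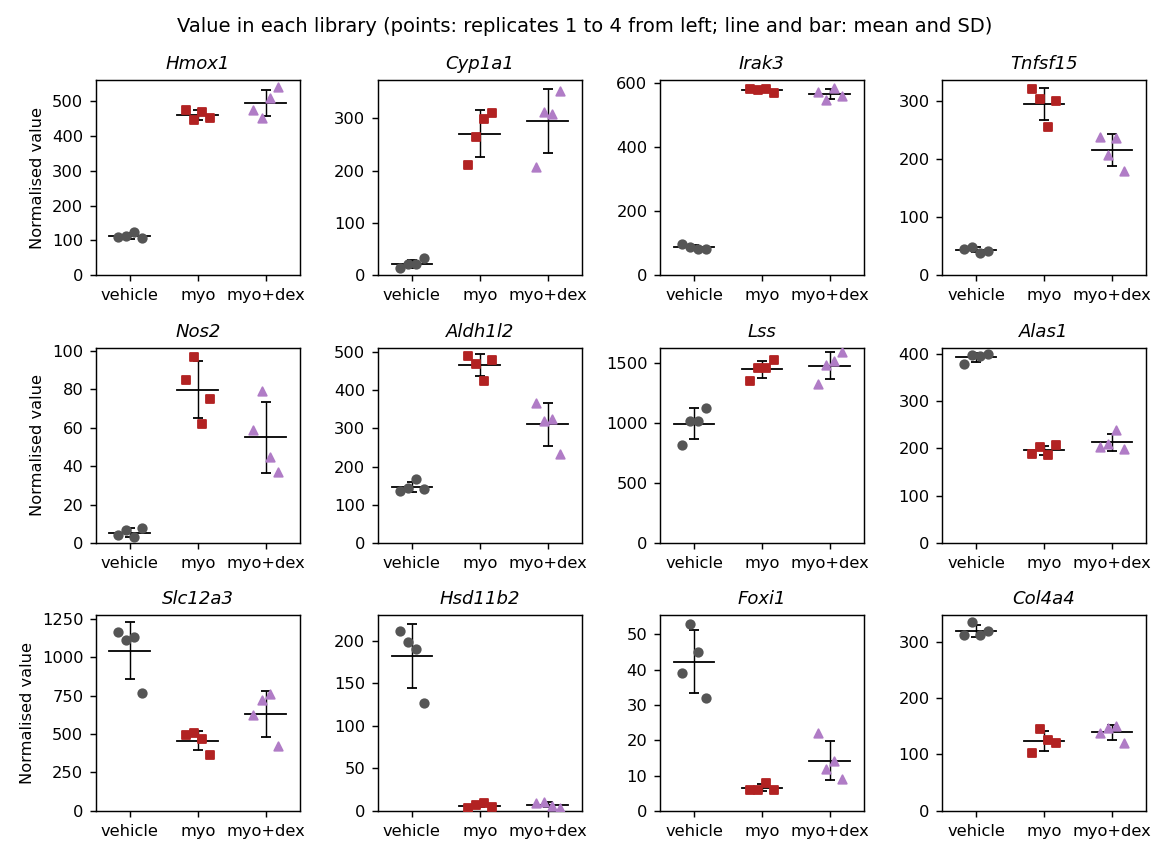
Normalised value in each of the 12 libraries for 12 genes, with the 4 replicates of a group from left to right and the mean and SD in black; each vertical axis starts at 0. Hmox1 lay at 106 to 124 with vehicle and 446 to 475 with myoglobin, and in none of the 12 genes do the vehicle and myoglobin values overlap.

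A further large response was that of the aryl hydrocarbon receptor targets. This receptor is a ligand-activated transcription factor that binds xenobiotic response elements next to cytochrome genes. Of 11 tested genes 7 rose and 0 fell, with a median change of 0.90. Cyp1a1 (ENSMUSG00000032315, chromosome 9, 57687928 to 57703824), the textbook target, was at 14, 21, 21 and 33 in the vehicle libraries and 210, 265, 298 and 310 in the myoglobin libraries (3.59 ± 0.21, adjusted p 1.95e-07). Cyp1b1 (ENSMUSG00000024087, chromosome 17, 79701537 to 79715061) went from 305, 257, 308 and 261 to 1262, 1273, 1482 and 1335. Its gain in mean value, from 283 ± 27.5 to 1338 ± 101 (SD, n = 4 libraries), was the largest of all called genes, and its log2 change was 2.24 ± 0.068.

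The feedback genes of the receptor rose too. Ahrr, the receptor's repressor, was at 5, 17, 9 and 14 and 35, 37, 36 and 60 (1.89 ± 0.32). Tiparp, which also restrains the receptor, was at 199, 207, 196 and 210 and 320, 364, 428 and 449 (0.93 ± 0.089). The receptor gene Ahr and its partner Arnt had changes of 0.06 ± 0.06 and -0.04 ± 0.031 and were not called. Nqo1, a quinone reductase that NRF2 shares with this receptor, rose by 0.90 ± 0.14. Aldh3a1, an aldehyde dehydrogenase, was called (1.03 ± 0.32) with values of 32, 29, 66 and 34 and 68, 51, 152 and 72; it lost the call without vehicle replicate 1, 2 or 4 or myoglobin replicate 3 or 4, at adjusted p-values of 0.0622, 0.0985, 0.0589, 0.0834 and 0.0511.

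The promoters of these 4 targets are shown because each holds the core of the xenobiotic response element, GCGTG on either strand. The windows lie within the 250 bases before the start in RefSeq (GRCm38.p6), are written 5′ to 3′ along the gene, and carry the core in capitals.
Cyp1a1 (chr9:57697547-57697575, + strand): tcagataaggagGCGTGgccaacagacac
Cyp1b1 (chr17:79715121-79715149, - strand): cgtcccgcccctCACGCcccaccccctaa
Ahrr (chr13:74292342-74292450, - strand): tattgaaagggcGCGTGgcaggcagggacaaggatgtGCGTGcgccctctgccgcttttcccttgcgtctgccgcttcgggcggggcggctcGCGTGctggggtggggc
Tiparp (chr3:65528265-65528293, + strand): ctccgtccggagCACGCgcacgggaggcg
This core is common: 49.4% of the 10984 tested genes with a promoter in that table hold it in the same window. RefSeq gave a promoter for 75.5% of the tested symbols, too few to compare the share between groups of genes, so the matches are a description of these sequences.

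NRF2 targets and antioxidant enzymes rose as a group in most members. Of 40 tested, 27 rose and 3 fell, with a median change of 0.19, against 12.2% and 12.0% of all genes (17 rose with all 12 libraries in the fit). Slc7a11, the cystine importer that feeds glutathione synthesis (ENSMUSG00000027737, chromosome 3, 49892526 to 50443614), was at 312, 346, 434 and 402 with vehicle and 955, 786, 1108 and 943 with myoglobin (1.34 ± 0.11). Gclm, the regulatory subunit of the first enzyme of glutathione synthesis, went from 650, 603, 643 and 618 to 947, 949, 1056 and 950 (0.63 ± 0.041). Sod2, the mitochondrial superoxide dismutase, rose by 0.69 ± 0.041, Txnrd1, thioredoxin reductase, by 0.39 ± 0.046, and Aox1, aldehyde oxidase, by 1.00 ± 0.15. The peroxidase genes Gpx1 and Gpx3 fell (-0.22 ± 0.046 and -0.24 ± 0.037), Gpx3 not with all 12 libraries in the fit (adjusted p 0.0826). Nfe2l2, which encodes NRF2, was at 1005 to 1042 and 1026 to 1133 and was not called (0.08 ± 0.034, adjusted p 0.113); it was called higher with the block (0.0343) and without myoglobin replicate 1 (0.0285).

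The core of the antioxidant response element, TGACNNNGC on either strand, is shown in capitals for 2 of the genes that rose; 13.9% of tested genes with a RefSeq promoter hold it in the 250 bases before the start.
Gclm (chr3:122245403-122245451, + strand): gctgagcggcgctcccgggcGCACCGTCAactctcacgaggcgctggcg
Gsta3 (chr1:21240444-21240492, + strand): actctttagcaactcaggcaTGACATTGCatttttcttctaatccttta
Gsta3, a glutathione transferase, was at 214, 193, 255 and 192 with vehicle and 297, 257, 339 and 265 with myoglobin and rose by 0.44 ± 0.10.

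Genes of the NF-kB system rose in most cases. NF-kB is a family of inducible transcription factors that drive inflammatory genes, together with inhibitors that end their own activation. Of 39 subunits and feedback regulators 26 rose and 3 fell, with a median change of 0.25. Irak3, a kinase-like protein that dampens Toll-like receptor signalling (ENSMUSG00000020227, chromosome 10, 120141648 to 120202130), was at 98, 90, 82 and 82 with vehicle and 582, 580, 583 and 571 with myoglobin, with almost no spread between libraries (2.71 ± 0.062, adjusted p 1.76e-10). Tnip3, which binds the inhibitor A20, went from 151, 212, 204 and 246 to 421, 483, 495 and 545 (1.27 ± 0.12). The signalling kinase gene Ripk2 rose by 1.16 ± 0.077 and the ubiquitin ligase gene Birc3 by 1.11 ± 0.044.

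The inhibitor genes Nfkbia, Nfkbie and Nfkbib rose, by 0.81, 0.64 and 0.34 on the log2 scale. Nfkbiz and Nfkbid, nuclear members of the same protein family, rose by 0.92 and 0.82. Of the subunits Relb rose by 0.61 ± 0.044, Rel by 0.53 ± 0.055, Nfkb2 by 0.43 ± 0.047 and Nfkb1 by 0.37 ± 0.026, whereas Rela was not called (0.08 ± 0.036). The 3 that fell were Traf1, an adaptor of TNF receptors (-0.72 ± 0.10), Irak4, a kinase of the Toll-like receptor complex (-0.32 ± 0.051), and Map3k14, the kinase of the non-canonical branch (-0.26 ± 0.056).

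Cytokine and chemokine genes gave some of the largest folds. Of 32 tested 19 rose and 2 fell (4 fell with the replicate number as a block), with a median change of 0.56. Tnfsf15, a TNF-family cytokine that acts on T cells (ENSMUSG00000050395, chromosome 4, 63724603 to 63745113), was at 46, 49, 39 and 42 with vehicle and 321, 303, 256 and 300 with myoglobin (2.72 ± 0.097). Ccl28, a mucosal chemokine, went from 185, 189, 157 and 155 to 679, 700, 626 and 650 (1.95 ± 0.069). Ccl20, which attracts cells that carry CCR6, went from 76, 78, 66 and 75 to 301, 289, 311 and 278. Tnf was at 182, 187, 177 and 177 and 454, 452, 469 and 463 (1.34 ± 0.042).

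Several growth factors of myeloid cells rose. Csf1, the macrophage growth factor (ENSMUSG00000014599, chromosome 3, 107741048 to 107760469), was at 565, 540, 532 and 537 and 1280, 1316, 1235 and 1171, a rise of 1.20 ± 0.038. Csf2 and Csf3, of granulocytes and macrophages, rose by 1.95 ± 0.22 and 1.50 ± 0.092. The neutrophil chemokine genes Cxcl1, Cxcl2 and Cxcl5 rose by 1.41 ± 0.088, 1.71 ± 0.11 and 0.98 ± 0.04, and the monocyte chemokine genes Ccl2 and Ccl7 by 1.14 ± 0.15 and 1.28 ± 0.31. Cxcl12, a homeostatic chemokine, fell, from 419, 461, 430 and 428 to 256, 248, 246 and 219 (-0.84 ± 0.054), and so did Cxcl14 (-0.27 ± 0.048). Il18 and Il34 had changes of -0.06 ± 0.27 and -0.04 ± 0.064 and were not called.

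The promoters of 3 genes of this response hold a kappa B match, GGGANNTTCC on either strand, which is shown in capitals; 1.47% of tested genes with a RefSeq promoter hold it. In Cxcl1 and Cxcl2 there is a match on each strand and these overlap.
Nfkbia (chr12:55492648-55492696, - strand): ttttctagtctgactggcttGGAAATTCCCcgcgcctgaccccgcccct
Cxcl1 (chr5:90891154-90891204, + strand): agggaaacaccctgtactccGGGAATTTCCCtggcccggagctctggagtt
Cxcl2 (chr5:90903782-90903832, + strand): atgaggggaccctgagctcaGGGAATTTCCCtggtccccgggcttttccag
Nfkbia was at 394, 388, 391 and 385 with vehicle and 680, 646, 737 and 671 with myoglobin, and Cxcl2 at 93, 89, 76 and 117 and 289, 310, 313 and 307.

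Receptors divided. Of 41 pattern recognition and cytokine receptors 16 rose and 8 fell; 5 fell without vehicle replicate 2 or without myoglobin replicate 4. Nod2, a sensor of bacterial wall fragments, was at 42, 65, 65 and 65 with vehicle and 321, 281, 267 and 320 with myoglobin (2.33 ± 0.13). Tlr2, a receptor of bacterial lipoproteins, went from 138, 142, 151 and 116 to 388, 389, 356 and 360 (1.45 ± 0.076). Cd14 and Tlr4, of the lipopolysaccharide receptor, rose by 0.52 ± 0.065 and 0.24 ± 0.054. The receptor chain genes Il6ra, Ifnar2 and Ifngr2 rose by 0.79 ± 0.089, 0.64 ± 0.052 and 0.58 ± 0.045. Of those that fell, Il1rl1, the receptor of interleukin 33, changed most, from 19, 15, 12 and 17 to 5, 8, 3 and 9 (-1.28 ± 0.31). Tlr1, a partner of Tlr2, fell as well (-0.85 ± 0.10), as did Il17rb, the receptor of interleukin 25, from 898, 862, 809 and 757 to 568, 522, 506 and 509 (-0.66 ± 0.054).

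Secreted defence proteins rose in most cases too. Of 22 acute phase and defence genes 14 rose and 2 fell, with a median change of 0.47. Serpina3f, a protease inhibitor, went from 7, 3, 5 and 7 to 97, 76, 67 and 70 (3.63 ± 0.24), and its relatives Serpina3g and Serpina3n rose by 1.44 ± 0.088 and 0.89 ± 0.15. These 3 belong to a cluster of closely similar genes, between which reads may have been split. Orm1, an acute phase glycoprotein of plasma, went from 4, 2, 0 and 2 to 15, 14, 6 and 10 (2.17 ± 0.48). Its change leans on values near 0 and ran from 0.81 to 3.21 over the alternative settings. Saa3, a serum amyloid, rose by 1.45 ± 0.16 and Hp, haptoglobin, which binds free haemoglobin, by 0.70 ± 0.078. Lcn2, the iron-scavenging protein used as a marker of tubular injury, was at 951, 928, 927 and 924 and 1253, 1299, 1271 and 1224 (0.44 ± 0.027). Umod, uromodulin of the thick limb, fell (-1.06 ± 0.19), and the other fall, of Ang, was lost without any of 6 libraries (vehicle replicates 1 to 3 and myoglobin replicates 2 to 4), which left 1.

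In the complement and coagulation list 8 of 26 rose and 5 fell. Cfb, factor B of the alternative pathway, was at 14, 19, 20 and 20 with vehicle and 104, 100, 89 and 84 with myoglobin (2.32 ± 0.15). The proteases of the classical pathway C1ra and C1s1 rose by 1.21 ± 0.12 and 1.09 ± 0.13, C2 by 1.21 ± 0.2, and C3, the central component, by 0.24 ± 0.032 (adjusted p 0.0823 with all 12 libraries in the fit). C4b fell (-0.89 ± 0.12); it has a near-identical neighbour, C4a, which was not called (-0.28 ± 0.21), and reads may have been split between them. Of coagulation genes F5 fell from 486, 410, 440 and 390 to 298, 275, 275 and 241 (-0.66 ± 0.075), and F3, tissue factor, fell (-0.29 ± 0.03).

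Enzymes of nitric oxide and oxidant production rose in 9 of 19 cases and fell in 3 (5 with the replicate number as a block). Nos2, inducible nitric oxide synthase (ENSMUSG00000020826, chromosome 11, 78920787 to 78960254), was at 4, 7, 3 and 8 with vehicle and 85, 97, 62 and 75 with myoglobin; its log2 change of 3.69 ± 0.27 leans on values near 0. Gch1, which makes the cofactor of that enzyme, went from 38, 58, 40 and 65 to 186, 197, 188 and 213 (1.98 ± 0.15). Acod1, which makes itaconate in activated myeloid cells, went from 93, 84, 50 and 62 to 473, 402, 410 and 364 (2.53 ± 0.16). The subunits of a NADPH oxidase of epithelia, Noxo1, Noxa1 and Cyba, rose by 1.09 ± 0.041, 1.62 ± 0.18 and 0.75 ± 0.064. On the same list Nox1, Duox2, Duoxa1 and Duoxa2 were below the filter and were not tested. Alox15, a lipoxygenase, fell from 29, 32, 23 and 20 to 9, 19, 5 and 6 (-1.47 ± 0.34). Ptgs1, the constitutive cyclooxygenase, fell (-0.54 ± 0.062), and the prostaglandin synthase gene Ptges fell slightly (-0.21 ± 0.05).

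Interferon-stimulated genes did not move as a block. Of 52 tested 9 rose and 9 fell (17.3% each), with a median change of -0.06, and 15 fell with the replicate number as a block. The guanylate-binding proteins, classically induced by interferon gamma, were among those that rose: Gbp5 went from 60, 50, 51 and 43 to 164, 156, 126 and 116 (1.44 ± 0.13), and Gbp2 and Gbp3 rose by 0.92 ± 0.074 and 0.50 ± 0.047. The transcription factor gene Irf1 rose by 0.34 ± 0.035. Genes of the antiviral response to type I interferon were among those that fell. Ifit3 went from 74, 93, 73 and 83 to 39, 41, 33 and 41 (-1.05 ± 0.12), and Ifit1, Ifit2 and Oas2 fell (-0.60 ± 0.14, -0.52 ± 0.10 and -0.62 ± 0.087), while Isg15 and Mx1 were not called (-0.04 ± 0.13 and 0.00 ± 0.2).

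Antigen presentation genes rose in 16 of 28 cases and fell in 0, with a median change of 0.20. Cd40, a costimulatory receptor (ENSMUSG00000017652, chromosome 2, 165055627 to 165072948), went from 23, 20, 26 and 13 to 176, 143, 117 and 122 (2.73 ± 0.2). H2-DMa, which loads peptides on class II molecules, went from 54, 62, 56 and 41 to 162, 156, 118 and 121, and Cd74, the invariant chain, rose by 1.03 ± 0.071. The class II gene H2-Ab1 itself was not called (-0.16 ± 0.23). Of class I, the immunoproteasome genes Psmb10 and Psmb8 rose by 0.54 ± 0.065 and 0.28 ± 0.039, while H2-K1 was not called (0.05 ± 0.026).

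The amino acid arm of the stress response had the highest share of rises among the lists in the fit of 8 libraries without a block. With the block 36 of its 43 genes rose, against 26 of 29 of the unfolded protein response, and with all 12 libraries in the fit the NF-kB list had a higher share. ATF4 is a transcription factor translated under amino acid shortage and other stress that drives amino acid import, synthesis and tRNA charging. Of 43 genes 35 rose and 2 fell (4 fell with the replicate number as a block), with a median change of 0.26. Aldh1l2, a mitochondrial enzyme of folate metabolism (ENSMUSG00000020256, chromosome 10, 83487450 to 83534140), was at 135, 143, 167 and 141 with vehicle and 489, 468, 424 and 477 with myoglobin (1.66 ± 0.07). Chac1, which degrades glutathione, went from 20, 24, 31 and 22 to 71, 96, 86 and 96 (1.81 ± 0.16), and Trib3, a pseudokinase target of ATF4, from 53, 55, 67 and 75 to 125, 135, 140 and 154 (1.15 ± 0.12). The transporter genes Slc1a4 and Slc6a9 rose by 0.81 ± 0.11 and 0.65 ± 0.12, and the synthesis genes Pycr1 and Asns by 0.79 ± 0.087 and 0.75 ± 0.081. The tRNA synthetase genes on the list rose less, except Wars at -0.03, from 0.15 for Gars (adjusted p 0.165 with all 12 libraries in the fit) to 0.38 for Cars. Atf3, usually induced with this programme, fell from 93, 103, 84 and 91 to 51, 53, 52 and 57 (-0.79 ± 0.10), and Ddit3, which encodes CHOP, was not called (0.19 ± 0.13).

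The composite element of ATF4 and C/EBP factors, TGATGNAA on either strand, is present before the start of 3 of these genes, shown with the matches in capitals; 2.33% of tested genes with a RefSeq promoter hold it.
Chac1 (chr2:119351029-119351076, + strand): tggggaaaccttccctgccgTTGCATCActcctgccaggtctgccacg
Asns (chr6:7693210-7693252, - strand): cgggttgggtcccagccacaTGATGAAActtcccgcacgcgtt
Slc7a11 (chr3:50443633-50443699, - strand): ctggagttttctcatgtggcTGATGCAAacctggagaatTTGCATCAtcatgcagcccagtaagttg
The cystine importer Slc7a11, counted above with the NRF2 targets, carries 2 matches in opposite orientation.

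Chaperones of the endoplasmic reticulum rose by small amounts. Of 29 genes of the unfolded protein response 22 rose and 0 fell, with a median change of 0.14 (12 rose with all 12 libraries in the fit). Herpud1, of the degradation of misfolded proteins, changed most, from 305, 337, 341 and 349 to 498, 517, 539 and 566 (0.67 ± 0.052). The chaperone genes Dnajb9, Hyou1 and Hspa5 rose by 0.28 ± 0.054, 0.24 ± 0.03 and 0.13 ± 0.03, Hspa5 not with all 12 libraries in the fit (adjusted p 0.31), where Hspd1 and Stip1 were lost too (0.253 and 0.326). Heat shock genes of the cytosol and mitochondria moved little: of 20, Hsph1, Bag3, the mitochondrial Hspd1 and Stip1 rose (0.22, 0.21, 0.15 and 0.12) and Cryab fell (-0.36 ± 0.084). Without myoglobin replicate 2, Hspd1 and Stip1 lost the call (adjusted p 0.0526 and 0.0731), and with the block 2 fell. Stip1 also lost it without vehicle replicate 1, 2 or 3 (0.0942, 0.12 and 0.0789) or myoglobin replicate 3 or 4 (0.131 and 0.103). The stress-induced chaperone genes Hspa1a and Hspa1b were not called (0.07 ± 0.11 and 0.01 ± 0.086).

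Of 31 proteasome subunits 13 rose and 0 fell, each by at most 0.23 on the log2 scale (Psma2). This count depends on single libraries: it was 8, 7 and 8 without vehicle replicates 1, 2 and 3, and 7, 5 and 5 without myoglobin replicates 2, 3 and 4. It was 3 with all 12 libraries in the fit. Of 40 lysosome and autophagy genes 8 rose and 3 fell (6 fell with the replicate number as a block, and 5 rose without any of vehicle replicates 2 to 4 or myoglobin replicate 2). The transcription factors of lysosome genes went apart, with Tfe3 up by 0.33 ± 0.036 and Tfeb down from 237, 209, 226 and 248 to 154, 155, 177 and 169 (-0.49 ± 0.07). Ctsc, a lysosomal protease, rose by 0.35 ± 0.042.

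Most genes of lipid synthesis rose. Of 41 genes of cholesterol and fatty acid synthesis 31 rose and 1 fell, with a median change of 0.24 (20 rose with all 12 libraries in the fit). Lss, lanosterol synthase (ENSMUSG00000033105, chromosome 10, 76531588 to 76557138), was at 812, 1015, 1013 and 1121 with vehicle and 1350, 1451, 1456 and 1522 with myoglobin (0.55 ± 0.077). Mvd and Idi1, of the mevalonate pathway, rose by 0.67 ± 0.09 and 0.52 ± 0.10, and Fdps, farnesyl diphosphate synthase, by 0.63 ± 0.096. Srebf2, the transcription factor of the pathway, rose by 0.17 ± 0.034, and Fasn, fatty acid synthase, by 0.17 ± 0.041; with all 12 libraries in the fit neither Srebf2 nor Fasn was called (adjusted p 0.0798 and 0.149). The only called fall was that of Abcg1, a cholesterol exporter driven by liver X receptors, from 96, 99, 87 and 101 to 61, 70, 52 and 62 (-0.64 ± 0.11).

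**Figure D3:**
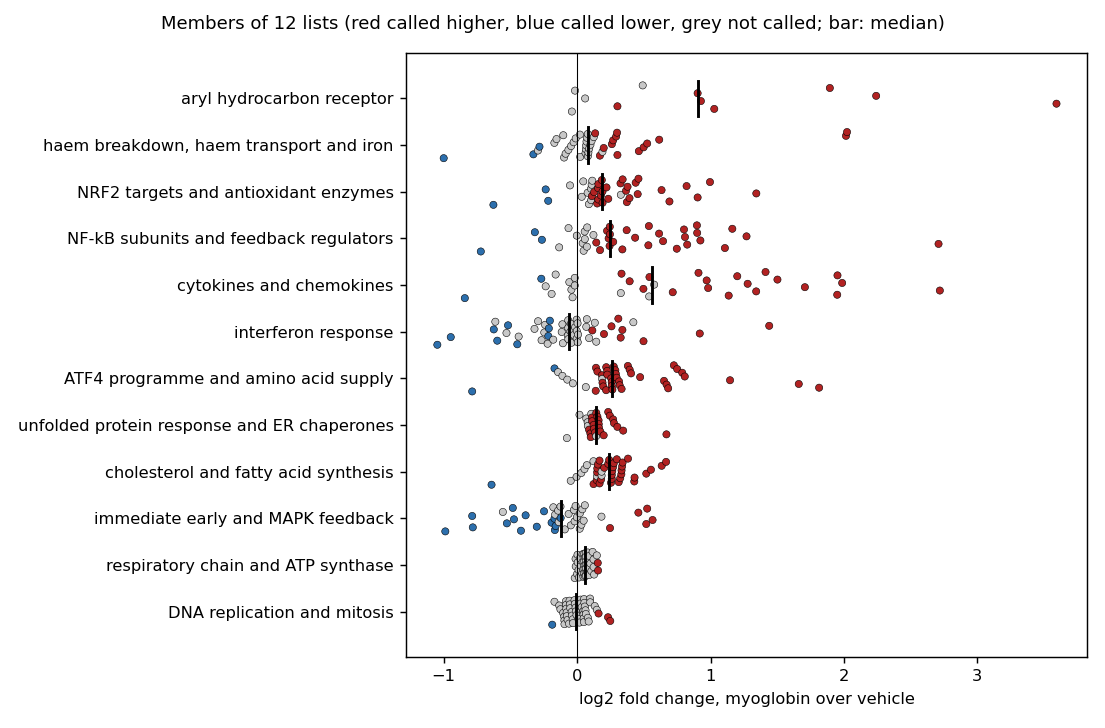
Log2 fold change of every tested member of 12 lists, 1 point per gene, with a black bar at the median. The medians run from 0.90 (aryl hydrocarbon receptor) to -0.12 (immediate early and MAPK feedback), and the members of the respiratory chain list lie close to 0.

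Genes of 2 other branches of metabolism were called about as often as all tested genes, of which 12.2% rose and 12.0% fell. Of 41 genes of fatty acid oxidation 6 rose (14.6%) and 4 fell (9.76%), and 8 fell with the replicate number as a block. Cpt1a, of the mitochondrial import of fatty acids, fell from 611, 596, 608 and 591 to 409, 426, 433 and 420 (-0.51 ± 0.033), while Vnn1, a pantetheinase, rose by 1.41 ± 0.12 and Acox2, a peroxisomal oxidase, by 1.13 ± 0.10. Of 42 genes of glycolysis and the hypoxia response 7 rose (16.7%) and 3 fell (7.14%). With the block 12 rose and 7 fell, and 1 fell without vehicle replicate 3 and 5 without myoglobin replicate 1. Hk2, a hexokinase, rose by 0.38 ± 0.03 and P4ha2, a collagen hydroxylase, by 0.63 ± 0.08, and Ndrg1, a hypoxia target, fell (-0.45 ± 0.058). The glycolytic gene Gapdh was not called (0.14 ± 0.056, adjusted p 0.104, and 0.00896 under the replicate block).

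Of 46 genes of the respiratory chain 2 rose and 0 fell, Uqcrq and Ndufb5, by 0.16 and 0.15, and 5 rose with the replicate number as a block. Neither call holds without single libraries: the count was 1 without vehicle replicate 1 or myoglobin replicate 1, 2 or 3, and 0 without vehicle replicate 2 or 4 or myoglobin replicate 4. Of 36 conjugation enzymes and dehydrogenases 9 rose (25.0%) and 7 fell (19.4%). With the block 14 rose, and 5 rose without vehicle replicate 2 or myoglobin replicate 3. The alcohol dehydrogenases stood out by size. Adh1 (ENSMUSG00000074207, chromosome 3, 138260991 to 138290698) went from 392, 352, 350 and 277 to 118, 135, 117 and 105 (-1.52 ± 0.10) and Adh6a from 51, 56, 38 and 40 to 3, 4, 7 and 5 (-3.07 ± 0.25). The retinaldehyde dehydrogenase gene Aldh1a3 fell (-0.63 ± 0.098), and Aldh3b1 and Aldh3a2 rose by 0.41 ± 0.077 and 0.25 ± 0.029.

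Several transport genes of the distal nephron fell. Of 23 markers of thick limb and distal convoluted tubule 10 fell and 2 rose, with a median change of -0.27. Slc12a3, the thiazide-sensitive sodium chloride transporter (ENSMUSG00000031766, chromosome 8, 94329201 to 94366214), was at 1163, 1115, 1130 and 767 with vehicle and 493, 505, 469 and 364 with myoglobin (-1.18 ± 0.13). Kcnj1, the potassium channel ROMK, went from 545, 547, 487 and 467 to 220, 283, 235 and 232 (-1.08 ± 0.077), and Cldn19, a claudin of the thick limb, from 343, 357, 299 and 264 to 139, 169, 131 and 144 (-1.11 ± 0.10). Trpv5, a calcium channel, went from 46, 41, 30 and 28 to 5, 8, 7 and 11 (-2.10 ± 0.25). Klhl3 and Wnk4, of the kinase pathway that regulates Slc12a3, fell (-0.65 ± 0.079 and -0.42 ± 0.03), and Wnk1 rose slightly (0.11 ± 0.027). The calcium-binding protein gene Calb1 rose by 0.31 ± 0.048.

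Of 24 principal cell markers 10 fell and 3 rose, with a median change of -0.21. Hsd11b2 (ENSMUSG00000031891, chromosome 8, 105518755 to 105523988), which inactivates glucocorticoids and so protects the mineralocorticoid receptor, was at 211, 198, 190 and 127 with vehicle and 4, 7, 9 and 5 with myoglobin, the largest fall of all genes with a mean of at least 30 (-4.68 ± 0.23, adjusted p 3.83e-08). The receptor gene itself, Nr3c2, fell by less, from 178, 247, 169 and 177 to 132, 130, 119 and 122 (-0.60 ± 0.11). The sodium channel subunits Scnn1b and Scnn1g fell (-0.76 ± 0.05 and -0.99 ± 0.086), and Scnn1a was not called (-0.22 ± 0.11, adjusted p 0.167, and 0.0312 under the replicate block). The water channel gene Aqp2 went from 35, 41, 28 and 16 to 7, 3, 2 and 5 (-2.58 ± 0.36), and Avpr2, the vasopressin receptor, fell (-0.85 ± 0.18). The 3 rises were small, of Prkar2b, St6gal1 and Npnt (0.29, 0.17 and 0.14; adjusted p 0.179 for Npnt with all 12 libraries in the fit).

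Of 15 intercalated cell markers 5 fell and 3 rose. Foxi1, the transcription factor that specifies these cells, went from 39, 53, 45 and 32 to 6, 6, 8 and 6 (-2.51 ± 0.21). Rhcg, an ammonia channel, went from 41, 44, 31 and 31 to 2, 7, 4 and 6 (-2.79 ± 0.3), and Atp6v1b1, a subunit of the proton pump, from 46, 45, 31 and 39 to 11, 12, 14 and 10 (-1.69 ± 0.19). Against these, Slc26a4, the pendrin exchanger of type B cells, was at 111, 113, 56 and 74 with vehicle and 166, 215, 143 and 190 with myoglobin and rose by 1.05 ± 0.2, and Car2, carbonic anhydrase, rose by 0.36 ± 0.027. The pendrin values are widely spread in both groups but do not overlap. A filter at a mean of at least 30 leaves Foxi1, Rhcg and Atp6v1b1 untested, and with it the list had 2 falls in place of 5.

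Of 23 tested proximal tubule markers 7 fell and 3 rose, and 26 of the 49 on the list were below the filter or not in the table. Besides Lrp2 the glucose transporter gene Slc5a1 rose, from 441, 428, 360 and 369 to 577, 552, 532 and 537 (0.46 ± 0.063), and Slc16a9, a carnitine exporter, from 14, 16, 13 and 12 to 39, 29, 51 and 38 (1.43 ± 0.2). Cyp4b1, a cytochrome P450, fell most, from 9, 13, 20 and 18 to 4, 5, 2 and 2 (-1.92 ± 0.34). The peptidase genes Mme and Napsa fell (-0.40 ± 0.071 and -0.63 ± 0.059).

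**Figure D4:**
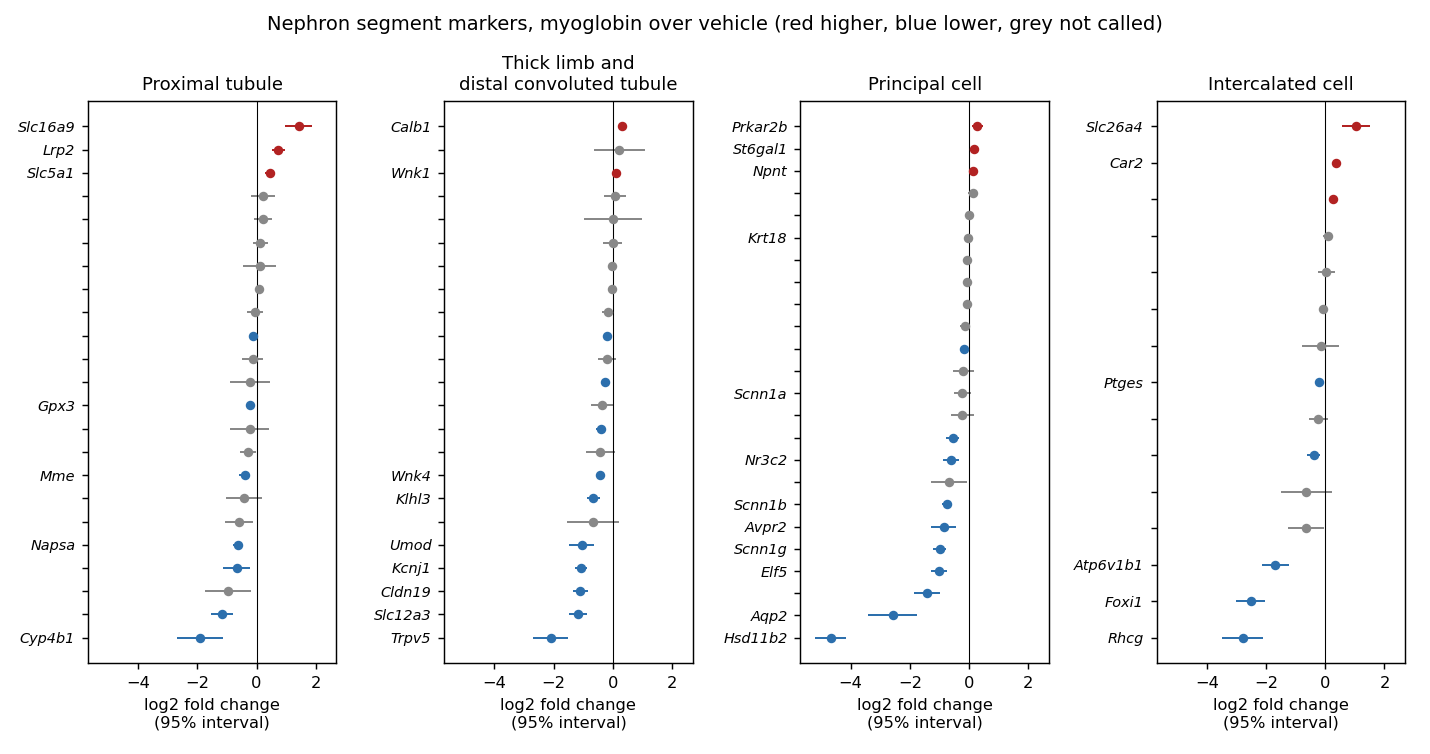
Log2 fold change with myoglobin and its 95% interval for the tested markers of 4 nephron segments, ordered within each panel; only markers named in the text carry their name. Of the thick limb and distal convoluted tubule markers 10 of 23 lie below 0 as called, of principal cell markers 10 of 24, of intercalated cell markers 5 of 15 and of proximal markers 7 of 23.

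Of 46 transcription factors of nephron identity 14 fell, most by small amounts, and 2 rose, with a median change of -0.12. Beside Foxi1, Elf5, a factor of principal cells, fell from 257, 242, 213 and 187 to 129, 104, 115 and 96 (-1.01 ± 0.11). The other falls were smaller, among them those of Hoxa9, Mecom and Sall1 (-0.28 ± 0.044, -0.20 ± 0.037 and -0.19 ± 0.043). Pax8, which marks the whole nephron epithelium, was not called (-0.04 ± 0.039). Hoxd11 rose by 0.50 ± 0.11, and the other rise, of Sox4 (0.11), was lost without vehicle replicate 2 or 3 or myoglobin replicate 1 or 3 (adjusted p 0.0753, 0.0592, 0.0503 and 0.0653); 4 rose without vehicle replicate 1 and 6 with the block.

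Of 26 tight junction genes 4 rose (15.4%) and 7 fell (26.9%), against 12.2% and 12.0% of all genes; 4 fell without vehicle replicate 3 and with all 12 libraries in the fit. Cldn2, which forms cation pores in the proximal tubule, went from 489, 511, 519 and 562 to 295, 337, 273 and 356 (-0.73 ± 0.075). Cldn1, Cldn7 and the scaffold genes Tjp3 and Cgnl1 rose by 0.50 ± 0.046, 0.26 ± 0.036, 0.52 ± 0.031 and 0.34 ± 0.025; Cldn7 was not called with all 12 libraries in the fit (adjusted p 0.0513). Ocln and Tjp1 were not called (-0.08 ± 0.039 and -0.01 ± 0.029). Cdh1 was not called either (-0.07 ± 0.029, adjusted p 0.114), but it was called lower with library totals (0.0425), with the block (0.0315) and without myoglobin replicate 2 (0.0421). Of 11 epithelial markers 4 fell and 0 rose (2 fell without myoglobin replicate 3), of which Cdh6 fell most (-0.73 ± 0.16).

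Markers of tubular injury did not rise together. Of 29 tested 4 rose (13.8%) and 5 fell (17.2%), while 12 fell with the replicate number as a block and 2 with all 12 libraries in the fit. Havcr1, the kidney injury molecule, was at 37, 71, 48 and 39 with vehicle and 5, 19, 17 and 24 with myoglobin, so that the groups do not overlap (-1.66 ± 0.38). The adhesion molecule genes Vcam1 and Icam1 went from 666, 630, 606 and 567 to 1092, 1127, 1074 and 1065 (0.82 ± 0.044) and from 821, 810, 808 and 768 to 1368, 1398, 1357 and 1312 (0.76 ± 0.031). Sox9, a factor of tubular repair, and Spp1, osteopontin, fell slightly (-0.14 ± 0.029 and -0.15 ± 0.037), but not with all 12 libraries in the fit (adjusted p 0.115 and 0.298). The keratin genes Krt8 and Krt18 were not called (0.00 ± 0.043 and -0.03 ± 0.041). Cdkn1a, which encodes p21, and the urothelial keratin gene Krt20 were not called (0.12 ± 0.074 and -0.78 ± 0.39) but were with the block (adjusted p 0.00503 and 0.00133).

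Immediate early genes and the feedback genes of MAP kinase signalling fell more often than they rose, 15 against 5 of 40, with a median change of -0.12. Egr1, the early growth response factor, went from 369, 397, 336 and 445 to 165, 189, 207 and 217 (-0.99 ± 0.095). Jun fell (-0.42 ± 0.041) and Fos, its partner, rose (0.52 ± 0.12). Klf10, a zinc finger factor, fell (-0.53 ± 0.098), and so, by small amounts, did the feedback inhibitors Spry1, Spry2, Spred2 and Dusp6 (-0.17, -0.19, -0.16 and -0.12; adjusted p 0.145 for Dusp6 with all 12 libraries in the fit). Ier3, an NF-kB target, rose by 0.52 ± 0.037. Of 18 genes of the EGF receptor family 6 fell and 2 rose (10 and 5 with the block). Erbb4, Erbb2 and Erbb3 fell (-1.0 ± 0.21, -0.27 ± 0.026 and -0.25 ± 0.037), as did the ligand genes Nrg4 and Btc (-0.91 ± 0.16 and -0.48 ± 0.073), while Egfr was not called (-0.07 ± 0.19). Of the rises, that of Lrig1 (0.11) was lost without vehicle replicate 2, 3 or 4 or myoglobin replicate 1 or 3 (adjusted p 0.0714, 0.0718, 0.0573, 0.0535 and 0.0504), and Rhbdf2, needed to bring the TNF-releasing protease to the surface, rose by 0.32 ± 0.041.

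Of 50 genes of matrix, YAP and TGF-beta signalling 8 rose and 15 fell (13 and 25 with the block; 9 fell with all 12 libraries in the fit). The collagen IV chains of the mature glomerular and tubular basement membrane fell. Col4a4 (ENSMUSG00000067158, chromosome 1, 82448423 to 82586849) went from 311, 335, 311 and 318 to 102, 146, 126 and 120 (-1.37 ± 0.09) and its neighbour Col4a3, which is transcribed in the opposite direction from the same start region, from 154, 176, 151 and 176 to 54, 57, 66 and 62 (-1.44 ± 0.095). The ubiquitous chain gene Col4a2 rose slightly (0.19 ± 0.045). Tnc, tenascin C, was at 103 to 132 with vehicle and 18 to 42 with myoglobin (-2.08 ± 0.21), and Tgfbi, a TGF-beta target, went from 209, 193, 179 and 183 to 58, 71, 52 and 57 (-1.67 ± 0.10). The integrin gene Itga2 rose by 0.61 ± 0.038, and the YAP target Ccn2 was not called (0.04 ± 0.044).

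Of 38 cell death genes 8 rose (21.1%) and 4 fell (10.5%). With the replicate number as a block 14 rose, and 5 rose without myoglobin replicate 2. The death receptor gene Fas went from 56, 45, 54 and 47 to 154, 146, 134 and 111 (1.41 ± 0.12). The inflammatory caspases Casp1 and Casp4 went from 42, 47, 35 and 40 to 80, 84, 84 and 77 and from 124, 144, 132 and 127 to 210, 232, 214 and 201. Gsdmc2 and Gsdmc3, pore-forming gasdermins, fell, from 164, 127, 149 and 91 to 26, 27, 35 and 27 (-2.14 ± 0.17) and from 74, 60, 81 and 48 to 17, 11, 20 and 11 (-2.10 ± 0.23); they are close copies between which reads may have been split.

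Of 50 genes of DNA replication and mitosis 3 rose and 1 fell, with a median change of -0.01, and 6 and 6 with the block. E2f1, which drives S phase entry, was at 197, 205, 205 and 217 and 234, 232, 258 and 256 (0.25 ± 0.057; adjusted p 0.067 with all 12 libraries in the fit, where no gene of the list was called). Ccne1 and Tyms rose (0.23 and 0.16) and Ccnd2 fell (-0.19), each at an adjusted p of 0.046, 0.0418 and 0.0462. The rises numbered 1 without vehicle replicate 1, 2 or 3 or myoglobin replicate 3 or 4. The falls numbered 0 without vehicle replicate 3 or 4 or myoglobin replicate 1, 2 or 3, and 2 without vehicle replicate 1 or 2 or myoglobin replicate 4. Mki67, Top2a and Ccnb1 were not called (0.05 ± 0.057, 0.03 ± 0.052 and -0.08 ± 0.094).

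**Figure D5:**
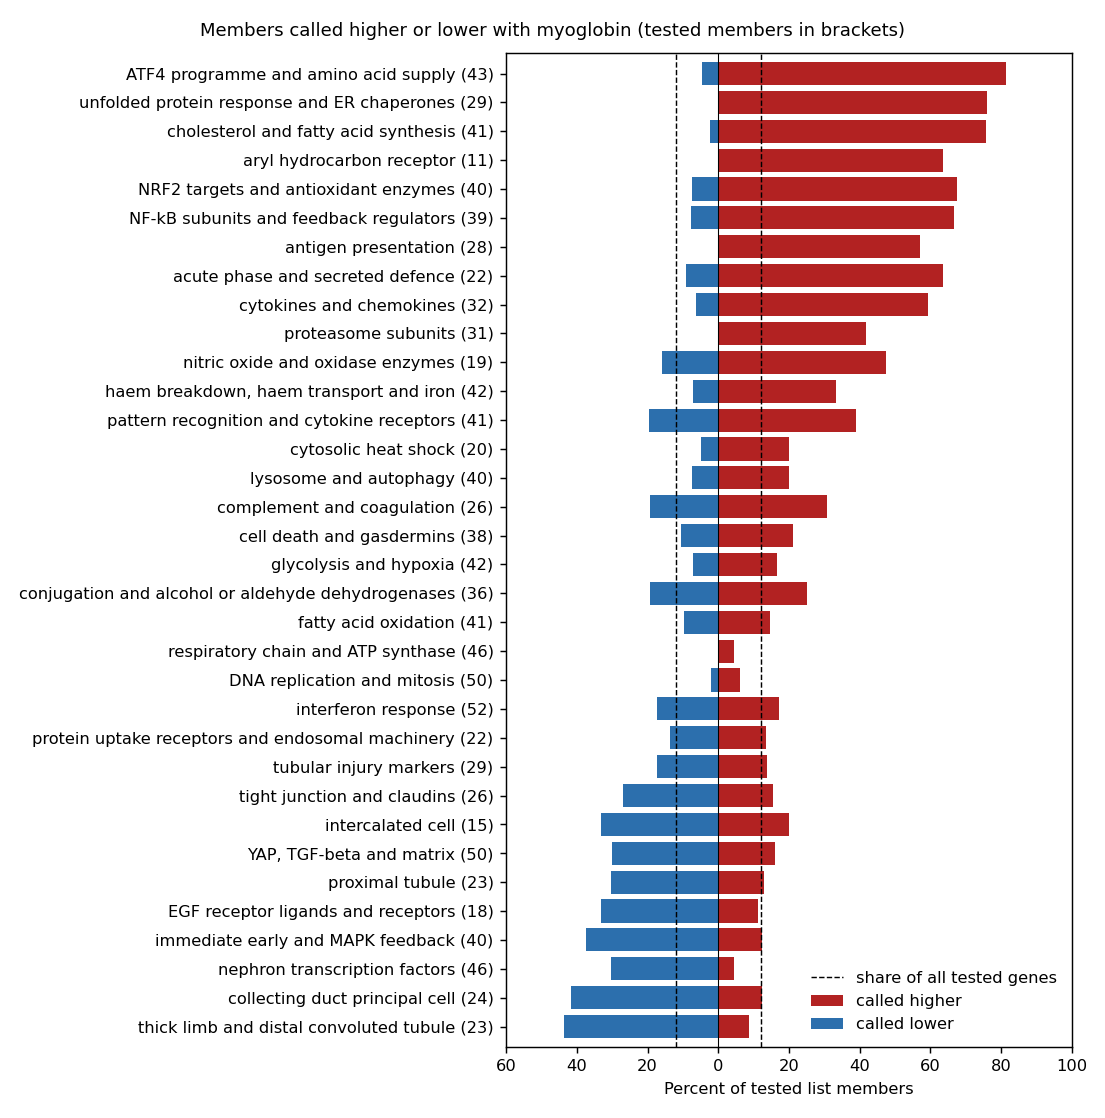
Percent of the tested members of each of 34 lists called higher (red, to the right) or lower (blue, to the left); dashed lines mark the shares of all tested genes, 12.2% and 12.0%. The ATF4 list shows 81.4% of rises and the thick limb and distal convoluted tubule list 43.5% of falls, the highest shares in the fit of 8 libraries without a block; the order differs with the block.

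Genes were also grouped by the letters of their symbol, which gave 171 families with at least 10 tested members. Those named here and in the next paragraph had the highest shares of these same calls, and no family was tested. Their counts, many from few members, are to be read beside the 12.2% called higher and 12.0% called lower of all tested genes. The Cxcl chemokines had the highest share of rises, 6 of 10, and also 3 falls. Of 15 Pik genes 7 rose: Pik3r5, Pik3cd and Pik3cg, which encode phosphoinositide kinase subunits best known from leukocytes, rose by 1.38 ± 0.29, 1.00 ± 0.14 and 0.89 ± 0.2, from values of 7 to 15, 31 to 40 and 18 to 32 with vehicle. Of 18 Aldh genes 8 rose, and of 10 Casp genes 4. The other families in which 4 of 10 or a larger share rose were Hsd (5 of 10), Psmd (6 of 14), Parp (5 of 12), Dnajb (4 of 10) and Tmed (4 of 10). With all 12 libraries in the fit 1 Psmd gene rose, 3 Hsd genes and 2 Dnajb genes. The rises numbered 2, 2 and 3 in Psmd without vehicle replicate 2 and myoglobin replicates 3 and 4, and in Parp 2 without vehicle replicate 3 and 3 without any of vehicle replicates 2 and 4 and myoglobin replicates 1, 3 and 4.

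Among families that fell, the Sox transcription factors led with 6 falls and 2 rises of 10 (1 rise without vehicle replicate 2 or 3 or myoglobin replicate 1 or 3); Sox8 fell most (-1.38 ± 0.32), then Sox5 and Sox11 (-0.57 ± 0.14 and -0.40 ± 0.045), and Sox7 rose (0.65 ± 0.047). Of 11 cadherins 6 fell and 0 rose, among them Cdh23 and Cdh4 (-0.79 ± 0.088 and -0.47 ± 0.079). Of 19 phosphodiesterases 8 fell and 3 rose, with Pde4a and Pde4c down (-0.81 ± 0.081 and -0.80 ± 0.14) and Pde4b, of the same subfamily, up (0.84 ± 0.065). Of 16 Adamts proteases 6 fell and 2 rose (5 rose with the block); Adamts16 fell (-1.22 ± 0.099) and Adamts14 rose (1.73 ± 0.22). Of 11 integrin alpha chains 4 fell and 2 rose, with Itga4 down (-0.96 ± 0.16) and Itga8 up (1.00 ± 0.058). The other families in this group were Arhgef (10 of 23 fell, 6 without vehicle replicate 2 or 3 or myoglobin replicate 3, and 3 with all 12 libraries), Man (5 of 10, 3 without vehicle replicate 2 or myoglobin replicate 3 or 4) and Galnt (5 of 13, 3 without vehicle replicate 3 or 4 or myoglobin replicate 1 or 3).

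Of the 15 largest rises among called genes with a mean of at least 30 and groups that do not overlap, those of Nos2, Serpina3f, Cyp1a1, Cd40, Tnfsf15, Irak3 and Acod1 are given above. Fyb, an adaptor of T cell and myeloid signalling (ENSMUSG00000022148, chromosome 15, 6522853 to 6663313), had the largest, from 6, 10, 10 and 9 to 150, 130, 112 and 112 (3.72 ± 0.18). Dock10, an exchange factor for small GTPases, went from 23, 28, 20 and 26 to 275, 234, 222 and 222 (3.25 ± 0.12) and Slc6a14, an amino acid transporter of epithelia, from 23, 10, 8 and 9 to 170, 140, 114 and 126 (3.46 ± 0.27). Vnn3, a pantetheinase, went from 41, 36, 33 and 37 to 226, 238, 203 and 222 (2.57 ± 0.094). Cd177, a surface protein known from neutrophils, went from 11, 41, 33 and 58 to 116, 227, 181 and 277 (2.60 ± 0.41), with a wide spread in both groups. Ptprv, Phactr3 and Erich3 rose by 3.36 ± 0.26, 2.65 ± 0.2 and 2.52 ± 0.11.

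Of the 15 largest falls under the same rule, those of Hsd11b2, Gsdmc2, Gsdmc3, Tnc, Tgfbi and Havcr1 are given above. Cyp24a1 and Cyp26b1 break down signalling molecules: the first, which inactivates vitamin D (ENSMUSG00000038567, chromosome 2, 170482708 to 170497145), went from 251, 282, 290 and 311 to 61, 82, 88 and 82 (-1.85 ± 0.11), and the other, which degrades retinoic acid, from 64, 71, 95 and 93 to 23, 21, 15 and 20 (-1.97 ± 0.18). Others are better known from muscle: Dysf, which repairs membranes, went from 195, 210, 169 and 162 to 54, 48, 36 and 49 (-1.96 ± 0.13), and Mybpc2 fell (-1.82 ± 0.19). The potassium channel gene Kcnh1, the protease gene Tmprss6, which controls hepcidin in liver, and Aard fell (-1.78 ± 0.17, -1.64 ± 0.25 and -1.56 ± 0.3).

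Ranked by the gain in mean value, Cyp1b1 was followed by Helz2, a nuclear receptor coactivator (958 ± 34 to 1855 ± 96.7), Tnfaip2 (1200.5 ± 25.4 to 2092 ± 42.7), Rassf4 (377 ± 17.8 to 1168 ± 95.4) and Steap4 (248 ± 25.6 to 1009 ± 37.3; SD, n = 4 libraries per group). The largest losses were those of Sned1, a matrix protein (1556 ± 142 to 665 ± 26.7), Tns1, tensin 1 (2728 ± 123 to 1946 ± 96.5), Ret, the receptor of GDNF (2630 ± 192 to 1913 ± 91.0), Igfbp5 (1631 ± 42.1 to 962 ± 51.8) and Slc12a3. In log2 terms Rassf4 rose by 1.63 ± 0.054 and Helz2 by 0.95 ± 0.039, and Sned1, Igfbp5, Tns1 and Ret fell (-1.22 ± 0.056, -0.76 ± 0.038, -0.49 ± 0.04 and -0.46 ± 0.049).

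With dexamethasone added to myoglobin the values of several genes are set beside the 2 groups, without a test, since a contrast with vehicle would share its control libraries. Replicate 4 of that group has an estimated 3.25 M reads, against 4.85 to 5.53 M in its replicates 1 to 3. Hmox1 was at 476, 453, 510 and 540, Cyp1a1 at 207, 312, 308 and 352, Irak3 at 574, 549, 586 and 561 and Hsd11b2 at 9, 10, 6 and 4, ranges that overlap those with myoglobin alone. Tnfsf15 was at 238, 208, 237 and 179, Ccl20 at 221, 221, 205 and 230, Csf2 at 43, 62, 58 and 56 and Aldh1l2 at 366, 320, 325 and 232, all below the values with myoglobin alone and above those with vehicle. The genes above were picked from the named genes by no set rule, and the following were chosen after their values were seen. Tns1 was at 2547, 2455, 2590 and 2589, above the 1814 to 2042 with myoglobin, and E2f1 at 112, 147, 151 and 153, below the values of both other groups. The share of all genes whose values with dexamethasone lie apart from another group was not counted.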

How the data were processed

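Messenger RNA of the 12 libraries was sequenced with a stranded kit, per the labels' protocols. Per the submitters' processing notes, Trimmomatic 0.39, STAR 2.7.10a, Picard 2.27.4, featureCounts 2.0.3, DESeq2 1.36.0 and the build mm10 were used, with no role or order given. The deposited table holds 1 score per gene and library: by their steps, reads per gene that the authors scaled by a factor for each library and rounded. Raw counts were not analysed here.

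Because the values are not counts, limma 3.58.1 (R 4.3.3) with a trended prior was run on log2(value + 1), two-sided, over the 14558 genes that reached 10 in 4 or more of the 12 libraries, with Benjamini-Hochberg adjustment. The 8 vehicle and myoglobin libraries entered the fit. A count model had been planned only for raw counts. Scripts were tested on simulated data. The comparison, the gene lists and the promoters shown were chosen with earlier results of these data known. Genes named are set ones (Hmox1, Lrp2 and the like), the 15 largest rises and falls at a mean of at least 30, the 5 largest gains and losses, up to 4 rises and falls per list with some members that were not called, and up to 3 per symbol family; some genes named beyond these were chosen after their values were seen. Some genes that this rule would name are not reported here.

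Libraries of the same number deviated together from their group means (r = 0.629, 0.142, 0.211 and 0.55 for replicates 1 to 4). Between libraries of different numbers r ran from -0.577 to 0.139, so the lower matched values are close to the highest unmatched one. The replicate number was entered as a block in an alternative fit only, and the fit behind the printed values has no block. Any pairing is read from the data, as the labels do not say that a number marks a mouse. Alternatives were other scalings, pseudocounts, filters, priors, all 12 libraries in the fit, the replicate block, and each library left out in turn. Promoter sequences and starts are from RefSeq (GRCm38.p6). Gene coordinates are those of the deposited table; strand use in counting is not given in the sources used here, so antisense overlaps were not separated.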

Additional observations from a re-analysis of the deposited data

Results flagged for a closer look

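In 27 of 616 groups of 4 libraries, counted over the named genes (14 in vehicle), 1 library stood far from the other 3 by Dixon's criterion; chance alone gives about 1 in 20. All values here are deposited normalised values. With vehicle, the library farthest off was high in replicate 1 for Lcn2 (951), Lrig1 (1470), Cdh23 (339) and Slc6a14 (23), in replicate 2 for Nr3c2 (247) and Tnc (132), in replicate 3 for Aldh3a1 (66) and in replicate 4 for Phactr3 (15). It was low in replicate 1 for Nod2 (42) and Cfb (14), in replicate 2 for Hspa5 (1392), and in replicate 4 for Slc12a3 (767), Avpr2 (58) and Jun (527).

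With myoglobin, replicate 1 was high for Erich3 (215) and low for Bag3 (413), Tjp3 (1195) and Tnfaip2 (2028). Replicate 2 was high for the small heat shock gene Cryab (109) and low for Car2 (801). Replicate 3 was high for Gclm (1056), C4a (19), Psma2 (363), Foxi1 (8) and Gsdmc2 (35). Replicate 4 was high for Ahrr (60) and low for Gpx3 (629).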

How the results depend on the processing

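Under 20 alternatives no named gene that was called changed direction. Changes that lean on values near 0 varied in size. They ran from -4.88 to -3.55 for Hsd11b2, from -3.3 to -1.93 for Adh6a and from 2.49 to 3.85 for Serpina3f. With the replicate number as a block, 5470 genes were called, 2683 higher and 2787 lower; among the named genes it ended no call, and those it added stand beside their values. Leaving out 1 library gave between 2737 (vehicle replicate 2) and 3580 (myoglobin replicate 1) calls, with 1352 to 1755 higher and 1385 to 1828 lower. The fit of all 12 libraries gave 2669, the lowest of the other alternatives. Upper-quartile scaling gave 1411 higher and 1992 lower. Of 267 named genes that were called, 242 held in every alternative that tested them. The filter at a mean of at least 30 left genes below that mean untested. Of 41 named genes that were not called, 10 gained a call in 1 or more. With all 12 libraries 22 named calls were lost: those of Gpx3, Ang, C3, Gars, Hspa5, Hspd1, Stip1, Srebf2, Fasn, Uqcrq, Ndufb5, Npnt, Sox4, Cldn7, Sox9, Spp1, Dusp6, Lrig1, E2f1, Ccne1, Tyms and Ccnd2. That fit also called fewer list members, with 5 receptors and 4 tight junction genes lower, 2 heat shock genes and 3 lysosome genes higher, and 0 respiratory chain genes. The median gene's change lay between -0.018 and 0.01 in every setting. The values are rounded, normalised numbers with no counts behind them here, so counting error at low values could not be given.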

Other observations

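Nes, which encodes the filament protein nestin, followed the replicate number in both groups. It was chosen after its values were seen. Its values were 690, 956, 1007 and 1269 in vehicle replicates 1 to 4 and 488, 712, 725 and 850 in myoglobin replicates 1 to 4, so replicate 1 was lowest and replicate 4 highest in both groups. It was not called without the block (adjusted p 0.0617 by limma, -0.49 ± 0.18 on the log2 scale) and was called lower with it (2.22e-16), without vehicle replicate 1 (0.00731) and without myoglobin replicate 4 (0.0332).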
